A study of Mus musculus with 9 samples.

Results

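The miRNAs examined here come from the paralogous miR-23/27/24 clusters of the mouse: the a cluster (hairpins mmu-mir-23a, mmu-mir-27a and the copy mmu-mir-24-2 of mmu-mir-24) and the b cluster (mmu-mir-23b, mmu-mir-27b and mmu-mir-24-1). Members were chosen by name, as the entries of the deposited count table that carry 1 of these hairpin names or 1 of their mature names. They make up 210 of 6414 entries, of which 199 are sequence tags under 6 hairpins and 11 are mature names, and 203 of the 210 hold a count. Summed by miRNA and hairpin arm (a tag starting before base 35 of its hairpin is 5p, the others 3p), they give 10 of 2116 arms, and 698 of these 2116 have a count. The libraries hold small RNA of 9 cultures of B16F1, a mouse melanoma line established from C57BL/6J skin. Of these, 3 were control cells without exposure and 3 received L-Tyr (the amino acid tyrosine, 5 mM). The remaining 3 received the thymidine analog bromodeoxyuridine (5-Brd-2′-dU) at 2.5 µg/mL, and both exposures lasted 72 h. The study describes its replicates as independent, so p-values measure the spread between 3 cultures of 1 line. The study asked how miRNA expression differs when L-Tyr raises pigmentation or 5-Brd-2′-dU lowers it, both with reduced proliferation.

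A miRNA hairpin is cut by Drosha and Dicer into a duplex, and the strand that stays in Argonaute recognises target mRNAs mainly through its seed, bases 2 to 8 from the 5′ end. The a and b clusters arose by duplication, and each is transcribed as 1 primary transcript that holds a miR-23, a miR-27 and a miR-24 hairpin. Known targets are glutaminase for miR-23, regulators of adipocyte differentiation and Wnt signalling for miR-27, and cell cycle genes such as E2F2 for miR-24. Both clusters are also known from endothelial cells and other cells of connective tissue.

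The mature sequences below, from RefSeq on GRCm38.p6, show the seeds in capitals, because miR-27a-3p and miR-27b-3p share theirs.
miR-23a-3p: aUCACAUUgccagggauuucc
miR-27a-3p: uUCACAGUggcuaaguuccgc
miR-27b-3p: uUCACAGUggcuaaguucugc
miR-24-3p: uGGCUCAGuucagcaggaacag
The miR-24-3p sequence is the same in both clusters. The first 18 of 21 bases of miR-27a-3p and miR-27b-3p are identical. Paralogs can be told apart only by tags that reach base 19, and the most abundant tag of each paralog, read from the count table and printed here with that base in capitals, does reach it.
miR-23a-3p tag: atcacattgccagggattTc
miR-23b-3p tag: atcacattgccagggattAc
miR-27a-3p tag: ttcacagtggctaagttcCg
miR-27b-3p tag: ttcacagtggctaagttcTg
Counted from 1 at the 5′ end, the miR-23b-3p tag differs from that of miR-23a-3p by T19A, and the miR-27b-3p tag from that of miR-27a-3p by C19T. Both pairs have no other difference within these tags, so their seeds are shared. These tags hold 31.1% of the counts of miR-23a-3p, 32.1% of miR-23b-3p, 69.2% of miR-27a-3p and 40.4% of miR-27b-3p.

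Each hairpin was found by 1 exact match in mm9. The a cluster lies on chromosome 8 from 86732417 to 86732820 (plus strand, 404 bp), where the annotation lists the miRNA genes Mir23a, Mir27a and Mir24-2 and no other gene. The b cluster spans 792 bp of chromosome 13 from 63401792 to 63402583 (plus strand), in an intron of the protein-coding gene 2010111I01Rik. At the position of Mir24-1, the annotation lists a miRNA gene on the minus strand, AC130827.1.

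Deposited counts came to 144452 to 424122 per library, and the members held 10.1% to 17.5% of them. The 95% Wilson interval of the lowest share is 9.98% to 10.2%, which covers counting error only. Member tags are 13 to 20 nt long, 74.3% of their counts lie in tags of 20 nt, and 98.8% in tags that match their hairpin exactly. Entries with a mature name hold 298 of 317970 member counts (0.0937%), so the values describe sequences of at most 20 nt, shorter than the mature miRNAs. The melanocyte miRNA miR-211-5p had 1271 to 6206 counts per library. Replicate 3 of 5-Brd-2′-dU stood apart from the other libraries: of 164 arms with a mean count of at least 50, it was over 2 times as high as each other library in 17 (10.4%), against 0 or 1 arm for any other library. For that reason, results on 5-Brd-2′-dU are given with and without it.

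miR-24-3p was the most abundant member in every library but the third 5-Brd-2′-dU replicate, and ranked from 1 to 5 among all arms. Its level, in CPM (read counts scaled to 1000000 per library, with totals adjusted by TMM), was 46050.1 ± 4978 (SD, n = 3) in control cells, where miR-27b-3p followed with 25846 ± 1333, miR-23a-3p with 21515 ± 755.5, miR-27a-3p with 18491 ± 2288 and miR-23b-3p with 3486 ± 303.4. In control cells no library of 1 of these arms overlapped with the next in this order. With L-Tyr the order was miR-24-3p, miR-23a-3p, miR-27b-3p, miR-27a-3p and miR-23b-3p, and the ranges of miR-23a-3p and miR-27b-3p overlapped, as did those of miR-27b-3p and miR-27a-3p. After 5-Brd-2′-dU, miR-27a-3p ranged from 13315 to 81762 CPM, overlapping with miR-23a-3p, miR-27b-3p and miR-24-3p. Tags of all arms have the same upper length, so CPM was compared between arms without a length term.

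**Figure D1:**
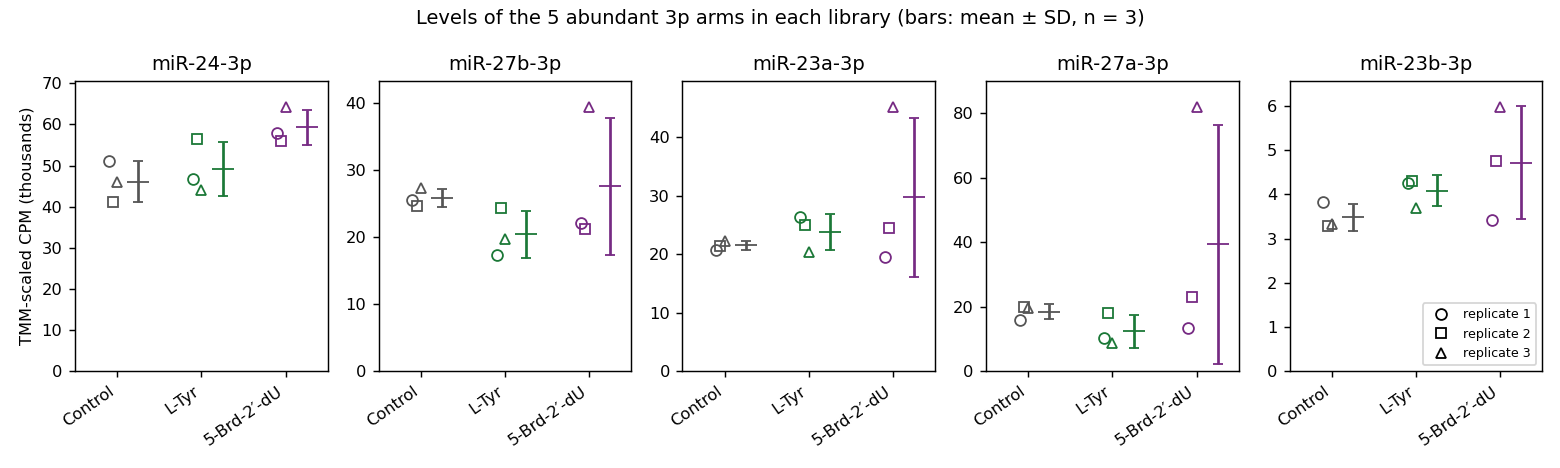
TMM-scaled CPM (divided by 1000, linear axes from 0) of the 5 abundant 3p arms in each of the 9 libraries, with the mean ± SD of each group of 3. On this scale, replicate 3 of 5-Brd-2′-dU (triangle) is the highest of all libraries in each of the 5 panels, most of all for miR-27a-3p at 81762 CPM. The 3 L-Tyr libraries of miR-27b-3p lie below the 3 control libraries. By total count, replicate 3 of 5-Brd-2′-dU is not the highest for miR-24-3p or miR-23b-3p, and the L-Tyr separation of miR-27b-3p is absent.

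Exposure to L-Tyr went with lower values of the miR-27 paralogs from both clusters, and with little difference in miR-23 or miR-24-3p, but no member was called. miR-27a-3p had 3171, 8958 and 4278 counts in control cells and 1548, 4699 and 1647 with L-Tyr, or 15857, 19979 and 19638 CPM against 10351, 18054 and 8695 CPM. The second L-Tyr replicate lay within the control range, and the other two lay below it. That replicate also had the highest sum of 9 stromal and endothelial miRNAs in this comparison, with 7427 CPM against 2461 and 2333 CPM in the other L-Tyr libraries and 1772 to 3130.3 CPM in control cells. Most of that sum was miR-143-3p (6700 CPM). miR-126a-3p was also highest there (157.5 CPM), miR-199a-3p and miR-145a-5p lay within the control range, and the other listed miRNAs had no count there. The part of these miRNAs in the result was not tested. For miR-27a-3p, the log2 fold change with L-Tyr was −0.68 with an SE of 0.274. The quasi-likelihood test of edgeR gave an unadjusted p of 0.0342 and, by Benjamini-Hochberg over the 233 arms tested, an adjusted p of 0.261. Without that replicate it was −1.02 and was called (adjusted p = 0.0329), and without replicate 3 of L-Tyr it was −0.39, and the alternatives as a whole gave an adjusted p between 0.0329 and 0.80.

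miR-27b-3p was also on the panel that was measured by RT-qPCR. By that method the study reported it as higher than in control cells with both exposures, although its own sequencing had it lower with L-Tyr. In these libraries it had 25543, 24691 and 27305 CPM in control cells and 17372, 24297 and 19733 CPM with L-Tyr. All 3 L-Tyr libraries were below all 3 control libraries on this scale, although replicate 2 of L-Tyr came close to the lowest control. By total count that replicate (6324 of 238245 counts) was above all 3 control libraries, the highest of which had 11071 of 424122. In CPM, the L-Tyr libraries were all below the control libraries in 11.2% of all arms tested. The difference was −0.43 on the log2 scale (SE 0.175), with an adjusted p = 0.261 (unadjusted p = 0.0359) in edgeR, and it lay between −0.53 and −0.17 over the alternatives, none of which called it (adjusted p from 0.113 to 0.907). Of the 9 members tested, 0 were called at an adjusted p under 0.05, beside 2.58% of all arms tested, and 2 had an unadjusted p under 0.05, beside 15.0% of all arms. DESeq2 called 0 of them as well.

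The partners of miR-27 in the same clusters gave values near 0 in this comparison. miR-23a-3p had 20777, 21480 and 22287 CPM in control cells and 26292, 24931 and 20398 CPM with L-Tyr, a log2 fold change of 0.05 with ± 2 SE from −0.27 to 0.37. For miR-23b-3p it was 0.13 (−0.29 to 0.56) and for miR-24-3p −0.0003 (−0.31 to 0.31), so differences within these bounds are not excluded. The bounds are no limit of detection, since they are not adjusted for the arms tested. miR-27a-3p and miR-27b-3p differed by more than 2 SE and were not called. The median over the 9 members was −0.20, and that of all arms tested was also −0.20. The member median is the value of miR-23a-5p (SE 2.19), which had 0 to 39 counts in control cells. For the abundant 3p arms alone, the median was −0.0003. The median of all arms depends on the scaling: by total count alone it was 0.07, with −0.42 for miR-27a-3p and −0.17 for miR-27b-3p. Fewer cells of a kind and less RNA per cell cannot be told apart in these bulk samples.

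On the TMM scale, exposure to 5-Brd-2′-dU went with higher miR-24-3p in every library. The larger values of miR-27a-3p and miR-23a-3p came mainly from replicate 3. miR-24-3p had 51101, 41149 and 45901 CPM in control cells and 58039, 55949 and 64140 CPM after exposure. No exposed library overlapped with a control library, which held for 13.0% of all arms tested in this direction. By total count this separation was absent: replicate 3 (17850 of 381324 counts) lay below replicate 1 of the control cells (10219 of 198810). The difference was 0.50 on the log2 scale (SE 0.183), with an adjusted p = 0.186 (unadjusted p = 0.0267) in edgeR. Without replicate 3 it was 0.40 (SE 0.180, adjusted p = 0.401). It stayed between 0.37 and 0.52 over all alternatives without being called in any (adjusted p from 0.148 to 0.642).

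miR-27a-3p had 15857, 19979 and 19638 CPM in control cells and 13315, 23189 and 81762 CPM with 5-Brd-2′-dU. The first exposed replicate lay below the control libraries, the second above them and the third was 3.53 times as high as the next library of the whole series. With all libraries, this gave 1.20 on the log2 scale (SE 0.601, adjusted p = 0.331), and without replicate 3 it was 0.08 (SE 0.289, adjusted p = 0.955). A single tag, the 20-nt tag of miR-27a-3p printed above, had 18043 counts in replicate 3, against 1452 and 6781 in the other two and 1945, 6035 and 2668 in control cells. An alternative without a filter on low counts called miR-27a-3p (1.06, adjusted p = 0.000897), and no other alternative did.

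miR-23a-3p went from 20777 to 22287 CPM in control cells, and was at 19575, 24449 and 45085 CPM with 5-Brd-2′-dU. The difference was 0.59 on the log2 scale (SE 0.315, adjusted p = 0.364), and 0.13 (SE 0.201) without replicate 3. In the b cluster, miR-23b-3p had 3414, 4763 and 5968 CPM after exposure against 3290 to 3835 CPM in control cells. The values were 0.57 (SE 0.266, adjusted p = 0.283) and 0.33 (SE 0.259) without replicate 3. miR-27b-3p had 22069, 21301 and 39357 CPM with 5-Brd-2′-dU, so that replicates 1 and 2 were below and replicate 3 above all control libraries. Replicates 1 and 2 alone were below all control libraries in 17.1% of all arms tested without replicate 3. Its log2 fold change depended on that library in sign, going from 0.22 (SE 0.263, adjusted p = 0.765) with it to −0.16 (SE 0.179, adjusted p = 0.792). Of 8 members tested, 0 were called, beside 4.74% of all arms, and 1 reached an unadjusted p under 0.05, beside 20.6% of all arms. By DESeq2 it was again 0. The median log2 fold change of the members was 0.54, and that of all arms was 0.02. Without replicate 3 these medians were 0.10 for the members and −0.08 for all arms.

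Markers of other cell types moved with miR-27a-3p in the same library. The stromal and endothelial list holds 9 miRNAs counted by arm, with both arms of miR-143, miR-145a, miR-199a and miR-126a. All had a count, and 8 were over 2 times as high in replicate 3 of 5-Brd-2′-dU as in each other library. Their sum was 277668 CPM there, against 1772 to 7427 CPM in the other 8 libraries. Most of that sum was miR-143-3p (73886 counts), and miR-199a-3p was the exception, with 1563 CPM against at most 945.1 CPM. Erythroid miRNAs (2 of 2, with 1462 counts of miR-451a-5p) summed to 6999.7 CPM against at most 288.2 CPM elsewhere. Leukocyte miRNAs (2 of 4 over 2 times each other library) summed to 1513 CPM against at most 69.2 CPM. Of the muscle list 1 of 3 passed that limit (miR-1a-3p, 237.2 CPM against 0 elsewhere), and of the hepatic list 0 of 1. The defining markers miR-142a-3p, miR-133a-3p and miR-206-3p were at 0 in all libraries. The melanocyte miRNA miR-211-5p was at 7007 CPM in replicate 3, between the 6310 and 7442 CPM of the other two. By total count it was lower in replicate 3 (1950 of 381324 counts) than in replicates 1 (1271 of 171362) and 2 (2900 of 384486). The part of these markers in the miR-27a-3p value was not tested. Among the 17 arms that were over 2 times as high in this library as in each other, miR-27a-3p was the 1 member. miR-23a-3p was 1.71 times, miR-27b-3p 1.44 times, miR-23b-3p 1.25 times and miR-24-3p 1.11 times the highest other library.

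**Figure D2:**
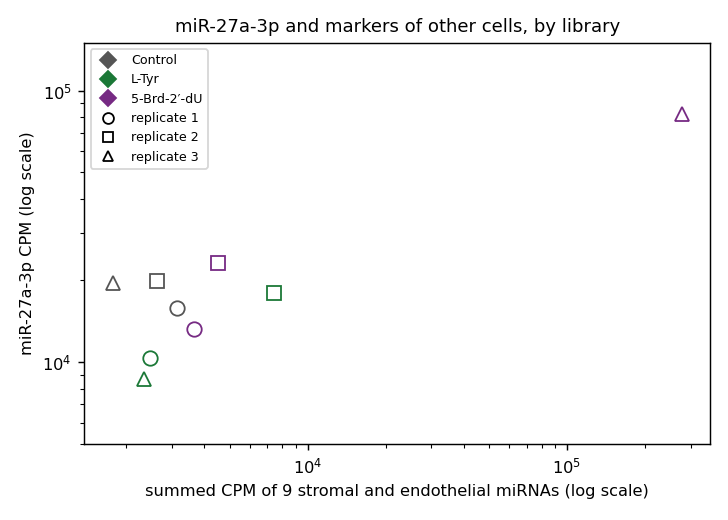
miR-27a-3p CPM against the summed CPM of the 9 stromal and endothelial miRNAs, both on log axes, 1 point per library (colour for the group, symbol for the replicate). Replicate 3 of 5-Brd-2′-dU lies alone at 277668 and 81762 CPM, and the other 8 libraries lie below 7427 CPM of the markers and between 8695 and 23189 CPM of miR-27a-3p.

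In the direct comparison of the exposures, miR-27a-3p had the largest difference of the abundant members, with 13315, 23189 and 81762 CPM after 5-Brd-2′-dU and 10351, 18054 and 8695 CPM with L-Tyr. The ranges overlapped, because replicate 1 of 5-Brd-2′-dU was below replicate 2 of L-Tyr. In log2 terms the difference was 1.74 (SE 0.620), with an adjusted p = 0.222 (unadjusted p = 0.0228) in edgeR, and 0.57 (SE 0.372, adjusted p = 0.722) without replicate 3 of 5-Brd-2′-dU. DESeq2 called it with an adjusted p of 0.0499, as did edgeR without a filter (1.64, adjusted p = 4.64e-09). For the other 3p arms the values were 0.50 (SE 0.269) for miR-27b-3p, 0.39 (SE 0.310) for miR-23a-3p, 0.36 (SE 0.181) for miR-24-3p and 0.29 (SE 0.263) for miR-23b-3p, with adjusted p from 0.484 to 0.793. Without replicate 3 they were 0.09, −0.11, 0.22 and 0.01. In this comparison 0 of 9 members were called, beside 2.70% of all arms, and 1 had an unadjusted p under 0.05, beside 13.1% of all arms. This comparison shares its libraries with the others, so the values above are not independent of them.

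**Figure D3:**
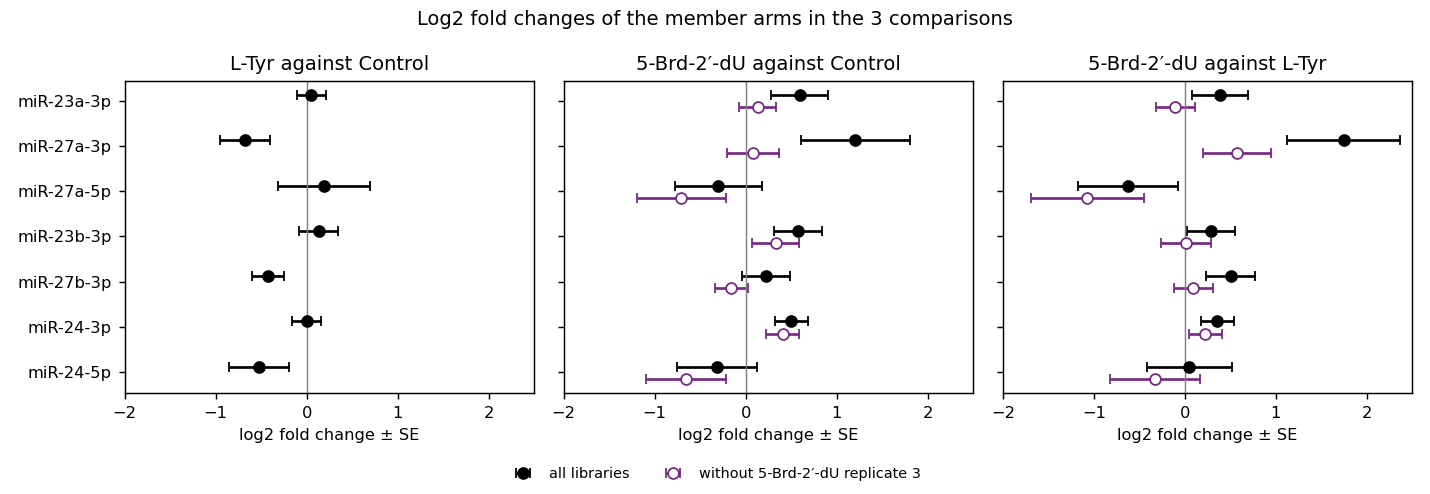
Log2 fold change ± SE of 7 member arms in the 3 comparisons, with all libraries (filled black) and without replicate 3 of 5-Brd-2′-dU (open purple). For miR-27a-3p the value against control cells goes from 1.20 to 0.08 without that replicate, and that of miR-24-3p from 0.50 to 0.40.

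The balance between the clusters was read within each library, where the scaling between libraries plays no part. The 3p arms of mir-23a and mir-27a together had 1.25, 1.48 and 1.37 times the counts of those of mir-23b and mir-27b in control cells and 1.69, 1.50 and 1.24 times with L-Tyr. For 5-Brd-2′-dU the ratios were 1.29, 1.83 and 2.80, so that the a cluster was above the b cluster in each of the 9 libraries. The paralogs differ in this respect, since miR-23a-3p exceeded miR-23b-3p by 5.13 to 7.55 times while miR-27a-3p was below miR-27b-3p in 7 of 9 libraries.

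For miR-23a-3p over miR-23b-3p, the mean log2 ratio was 2.63 ± 0.166 (SD, n = 3) in control cells, 2.54 ± 0.0797 with L-Tyr and 2.60 ± 0.287 with 5-Brd-2′-dU. The groups overlapped, and the differences from control cells were −0.09 (SE 0.107, exact two-sided permutation p = 0.5) with L-Tyr and −0.03 (SE 0.192, exact permutation p = 0.9) with 5-Brd-2′-dU. For miR-27a-3p over miR-27b-3p, the log2 ratios were −0.69, −0.31 and −0.48 in control cells, −0.75, −0.43 and −1.18 with L-Tyr, and −0.73, 0.12 and 1.05 with 5-Brd-2′-dU. Only replicates 2 and 3 of 5-Brd-2′-dU had more miR-27a-3p than miR-27b-3p. The difference from control cells was −0.30 (SE 0.245, exact permutation p = 0.3) with L-Tyr and 0.64 (SE 0.527, exact permutation p = 0.4) after 5-Brd-2′-dU. The former was −0.10 without replicate 3 and −0.47 without replicate 2 of L-Tyr, and the latter 0.19 without replicate 3 and 1.08 without replicate 1 of 5-Brd-2′-dU. Between the exposures it was 0.94 (SE 0.559, exact permutation p = 0.2), or 0.48 without replicate 3 of 5-Brd-2′-dU. With 3 libraries against 3, the smallest possible p is 0.1. In the family of 12 ratio tests, which includes the arm ratios, 2 reached that p, and the adjusted p was 0.48 or more in all.

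**Figure D4:**
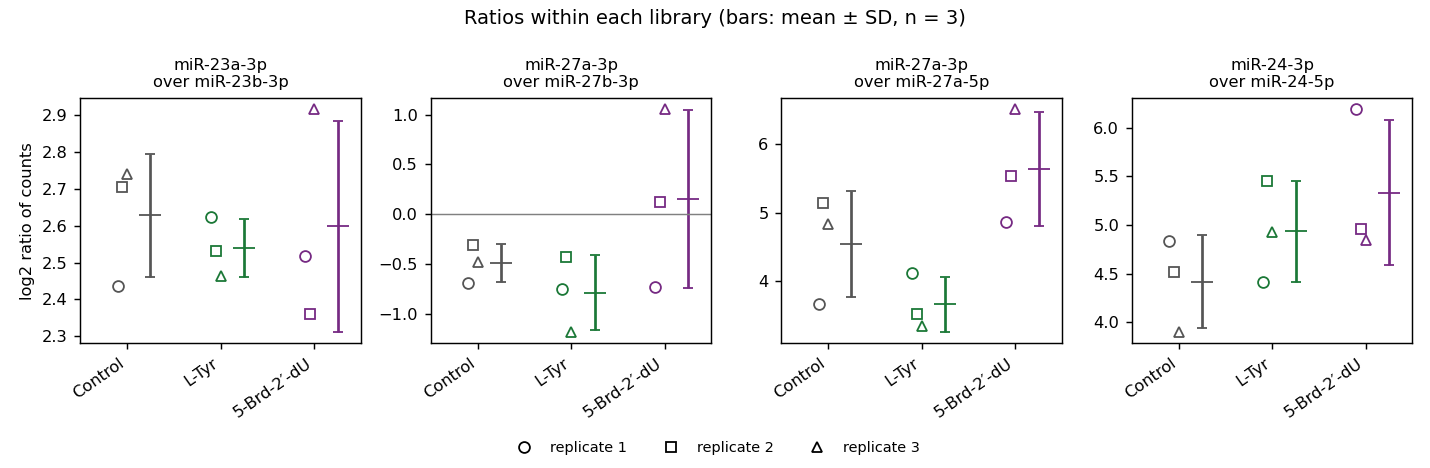
Log2 ratios of counts within each library, for the paralogs of miR-23 and miR-27 and for the 3p over the 5p arm of miR-27a and miR-24, with the mean ± SD of each group of 3. For miR-27a-3p over miR-27b-3p, the 5-Brd-2′-dU libraries spread from −0.73 to 1.05, and for miR-27a-3p over miR-27a-5p all 3 of them lie above the 3 L-Tyr libraries.

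Within a cluster the members did not keep a fixed ratio across libraries. miR-27a-3p had 0.763, 0.93 and 0.881 times the counts of miR-23a-3p in control cells, but 0.394, 0.724 and 0.426 times with L-Tyr and 0.68, 0.949 and 1.81 times with 5-Brd-2′-dU. The 3 L-Tyr libraries were the lowest of the control and L-Tyr libraries. In the b cluster, miR-27b-3p had 6.66, 7.50 and 8.19 times the counts of miR-23b-3p in control cells and 4.07, 5.64 and 5.34 times with L-Tyr, again without overlap, and 6.46, 4.47 and 6.59 times with 5-Brd-2′-dU. miR-24-3p over miR-23a-3p lay between 1.78 and 2.46 in the control and L-Tyr libraries, and between 1.42 and 2.96 with 5-Brd-2′-dU. Over all pairs of the 164 arms with a mean count of at least 50, the L-Tyr and control libraries were separated in 19.8% of such ratios, in either direction. These ratios are given as descriptions, without a test.

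The 5p arms, most of them the strand that is degraded, were far lower. miR-24-5p had 1785, 1793 and 3076 CPM in control cells, 2187, 1287 and 1441 CPM with L-Tyr and 790.5, 1791 and 2228 CPM with 5-Brd-2′-dU, and these ranges overlapped. Its log2 fold change was −0.52 (SE 0.329) with L-Tyr and −0.31 (SE 0.438) after 5-Brd-2′-dU, or −0.66 (SE 0.439, adjusted p = 0.568) without replicate 3. The tags of this arm tell the clusters apart, and 4112 counts lay under mir-24-2 of the a cluster, against 232 under mir-24-1 of the b cluster. miR-27a-5p had 250, 254 and 150 counts in control cells, 89, 409 and 163 with L-Tyr and 78, 228 and 248 with 5-Brd-2′-dU, or 456.7 to 1571 CPM, and the groups overlapped. Without replicate 3, the 456.7 and 496.1 CPM of 5-Brd-2′-dU lay below all control libraries (lowest 566.5 CPM) and all L-Tyr libraries (lowest 595.1 CPM), a separation found in 17.1% and 12.9% of all arms. The fold changes of miR-27a-5p differed in sign from those of miR-27a-3p in all comparisons, at 0.19 (SE 0.503), −0.30 (SE 0.474) and −0.63 (SE 0.551). Without replicate 3, the differences after 5-Brd-2′-dU were −0.71 (SE 0.491, adjusted p = 0.593) against control cells and −1.07 (SE 0.620, adjusted p = 0.656) against L-Tyr. The log2 ratio of miR-27a-3p over miR-27a-5p was 4.54 ± 0.778 in control cells, 3.66 ± 0.407 with L-Tyr and 5.64 ± 0.834 with 5-Brd-2′-dU (SD, n = 3). The exposures differed by 1.98 (SE 0.536, exact permutation p = 0.1, the smallest possible), and by 1.54 without replicate 3 of 5-Brd-2′-dU. This direction changed with the tags counted, to −0.21 with the most abundant tag of each arm and −0.59 with tags of 19 nt or more. In replicate 3 of L-Tyr, these tags of miR-27a-5p had 0 counts, so both of these ratios rest on the pseudocount there. For miR-24-3p over miR-24-5p the ratio was 4.42 ± 0.477 in control cells and 5.34 ± 0.746 with 5-Brd-2′-dU, a difference of 0.92 (SE 0.511, exact permutation p = 0.1), which was 0.49 without replicate 1 and 1.16 without replicate 3 of 5-Brd-2′-dU. miR-23a-5p (0 to 39 counts per library) and miR-23b-5p (0 to 67 counts) were close to the limit of detection. There, 3 counts are worth 6.53 to 20.1 CPM, and 3 is about the upper 95% bound for a count of 0 by counting error alone. The 3 libraries of 5-Brd-2′-dU had 67, 32 and 34 counts of miR-23b-5p and those of L-Tyr 0, 18 and 0. These CPM did not overlap (69.6 CPM the lowest against 69.2 CPM the highest), as in 11.3% of all arms, and the difference was 3.10 on the log2 scale (SE 1.79, adjusted p = 0.55). miR-27b-5p had 22 counts in replicate 1 of the control cells and was at 0 in the other 8 libraries.

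The members also differed in where their tags began. miR-27a-3p tags began at the mature 5′ end for 80.6% of the counts on average over the 9 libraries (range 75.2% to 90.5%), and those of miR-24-3p for 65.0% (58.5% to 70.3%). For miR-23a-3p this share was 34.0% (24.1% to 57.7%), and tags that began 1 or 2 bases later held 24.8% and 20.7%. Because the seed is counted from the 5′ end, such shifted tags carry another seed, shown in capitals in the 20-nt tags of miR-23a-3p that begin 0, 1 and 2 bases after the mature start.
start +0: aTCACATTgccagggatttc
start +1: tCACATTGccagggatttcc
start +2: cACATTGCcagggatttcca
They hold 18630, 12560 and 7054 counts over the 9 libraries. Tags over 20 nt are not part of the values, so these shares describe the listed tags and not full-length miRNAs.

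miR-27b-3p began at the mature start in 48.8%, 50.3% and 37.9% of its counts in control cells, 64.7%, 56.6% and 57.7% with L-Tyr, and 54.7%, 60.8% and 74.5% with 5-Brd-2′-dU. All 6 exposed libraries were above all 3 control libraries, on average by 14.0 percentage points with L-Tyr and 17.6 after 5-Brd-2′-dU. Among 149 hairpin arms with a mean count of at least 50 and a count in each library, the share at the most frequent start was separated in this direction in 6.71% with L-Tyr and 7.38% after 5-Brd-2′-dU. For miR-23b-3p the start was set where its hairpin matches the 5′ part of miR-23a-3p. Its share at this start went the other way with L-Tyr, with 43.5%, 37.6% and 52.3% in control cells against 30.1%, 31.7% and 31.1%, and such a separation downward was found in 9.40% of the arms. Its share with 5-Brd-2′-dU was 27.1%, 39.7% and 59.2%, overlapping with control cells. In the remaining 3 arms the groups overlapped in this share. Replicate 3 of 5-Brd-2′-dU had the highest share at the mature start in all 5 arms.

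**Figure D5:**
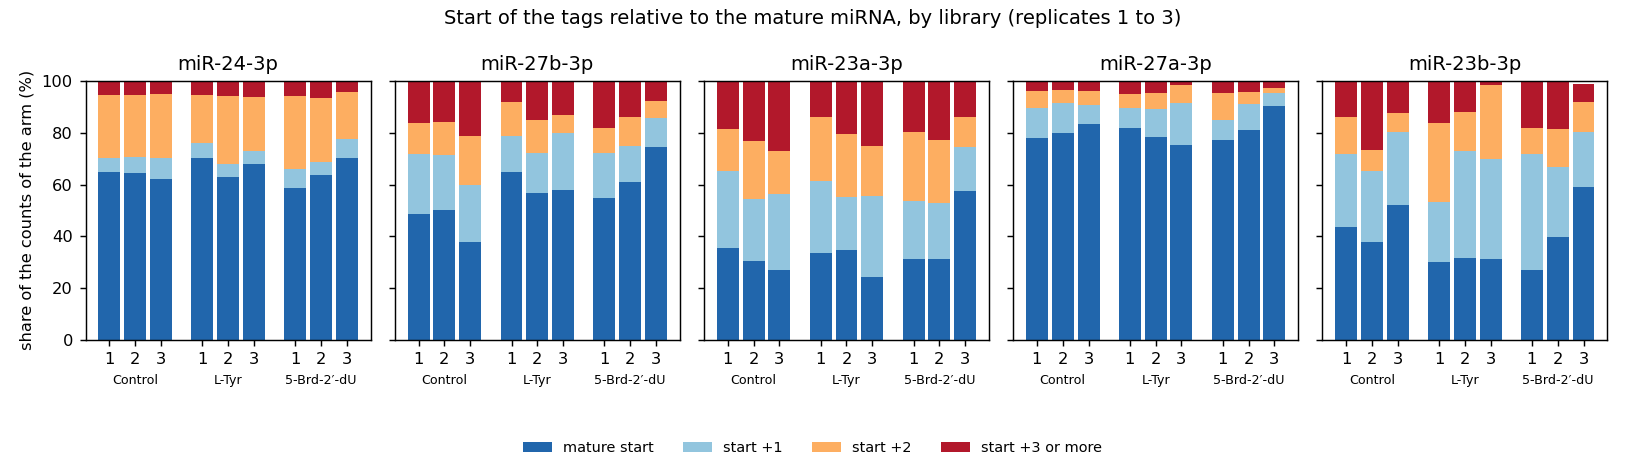
Share of the counts of each 3p arm (in %) whose tags begin at the mature start or 1, 2, 3 or more bases after it, for each of the 9 libraries. Tags that begin before the mature start (at most 1.15% of miR-23b-3p, 0 in the other arms) are not drawn, and the dark blue part of miR-27b-3p is smaller in the 3 control libraries (37.9% to 50.3%) than in the 6 exposed ones (54.7% to 74.5%).

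Most tags could be assigned to 1 paralog. Tags found in the own hairpin and not in that of the paralog held 96.9% of the counts of miR-23a-3p, 92.5% of miR-23b-3p, 96.1% of miR-27a-3p and 97.7% of miR-27b-3p, and tags found in both held 0.462%, 3.20%, 1.57% and 1.51%. For miR-24-3p all tags occur in both hairpins. Its 10 tag sequences listed under both had 60874 counts under mir-24-1 and 61122 under mir-24-2, or 49.9% under mir-24-1 (95% Wilson interval 49.6% to 50.2%), and between 49.1% and 50.9% in each library. An even split of this kind says nothing on how much miR-24-3p each cluster gives, so the sum was used. Tags that depart from the hairpin in their last 1 or 2 bases by T alone held 1.73% of miR-23a-3p, and those by A alone 1.21% of miR-27a-3p and 1.74% of miR-23b-3p.

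Likeness in log2 CPM to the sum of miR-23a-3p and miR-27a-3p over the 9 libraries was ranked among 157 non-member arms with a mean count of at least 50. The arms most alike were miR-369-3p (Pearson r = 0.937), miR-143-3p (r = 0.922) and miR-101a-3p (r = 0.90). Without replicate 3 of 5-Brd-2′-dU the values of miR-143-3p and miR-101a-3p were 0.301 and 0.398 over 8 libraries, and miR-369-3p, with 462 counts in that library and 0 in the other 8, had none. Over these 8 libraries miR-16-5p (r = 0.841), miR-10b-3p (r = 0.82) and miR-132-3p (r = 0.779) led. For the sum of miR-23b-3p and miR-27b-3p they were a predicted miRNA of the mir-126a hairpin (r = 0.895), miR-369-3p (r = 0.85) and miR-30b-5p (r = 0.837), of which the mir-126a entry fell to r = 0.639 without that library while miR-30b-5p led (r = 0.925), followed by miR-107-3p (r = 0.921) and let-7i-5p (r = 0.898). Among the members, miR-27a-3p and miR-27b-3p, from different clusters, had r = 0.898 over 9 libraries and 0.684 over 8, and miR-23a-3p and miR-27a-3p, from the same cluster, 0.833 and 0.188. All of these share the libraries and their scaling, and they are descriptions.

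Beside miR-27b-3p, the study's RT-qPCR panel held 6 arms, of which miR-470-5p and miR-470-3p were at 0 in all libraries and 4 were tested. For L-Tyr against control cells, miR-129-5p (log2 fold change 1.04, adjusted p = 0.0198) and miR-30d-5p (0.87, adjusted p = 0.0198) were called higher, while miR-211-5p (0.71, adjusted p = 0.13) and miR-148b-3p (−1.49, adjusted p = 0.12) were not called. For 5-Brd-2′-dU, miR-129-5p was called higher (1.59, adjusted p = 0.0176), and relative to L-Tyr miR-211-5p, which is encoded in an intron of the pigment cell gene Trpm1, was called lower (−1.64, adjusted p = 0.00596). Panel members with counts here were listed by the study from the same libraries, so the calls are not independent evidence of their direction.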

How the data were processed

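Small RNA of 9 cultures of B16F1 cells (3 control, 3 with L-Tyr, 3 with 5-Brd-2′-dU) was prepared by the authors with a TruSeq kit and sequenced in single reads. The study states that reads between 17 and 35 nt were aligned to mm9 and miRBase 21 in BaseSpace (Small RNA app, version 1.0). In the counts that the authors deposited, member tags are 13 to 20 nt long, so the shortest lie outside that range. The authors also deposited normalized counts and DESeq2 tables with fold changes and p-values, which were not used. Use of strand and of reads with several matches is not given in the sources used here.

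Counts were summed by miRNA and arm over the whole table. Each comparison was fitted on its 6 libraries with edgeR 4.0.16 (R 4.3.3; TMM factors, filterByExpr, quasi-likelihood test, Benjamini-Hochberg adjustment over all arms tested, calls under 0.05). The SE of a fold change is its size over the square root of F. CPM uses TMM factors of all 9 libraries (0.748 for replicate 3 of 5-Brd-2′-dU), and whether the libraries of different groups overlap can depend on these factors. Ratios within a library (pseudocount 0.5) were compared by exact two-sided permutation tests, adjusted over 12 tests. The fits were tested on simulated data. Hairpins were matched to NCBIM37 (mm9), and sequences came from RefSeq (GRCm38.p6), where 10 mature member names matched.

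The text names every member arm, the 3 arms most like the miR-23/27 sum of each cluster, the RT-qPCR panel and marker lists of other cells. Members and lists were chosen with earlier results of these data known. Alternatives were DESeq2 1.42.0 and its size factors, total counts, no filter on low counts, a minimum mean count (50), the most abundant arm left out, all libraries in 1 fit, a replicate block, single tags, each tag under 1 hairpin, tags of at least 17 or 19 nt, a pseudocount of 1, and leaving out each library. Counts of shared tags are split between their listings, so "each tag under 1 hairpin" moves all of them to the first.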

Additional observations from a re-analysis of the deposited data

How the results depend on the processing

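The 26 member fold changes were recomputed in 460 alternatives, and a member was called in 4 of them, in each case miR-27a-3p. Calls over all arms were 6 with L-Tyr, 12 after 5-Brd-2′-dU and 6 between the exposures. They became 12, 49 and 27 without a filter, 20, 24 and 17 with DESeq2, and 1, 0 and 2 over single tags. For 5-Brd-2′-dU they were 6 with DESeq2 size factors, 3 with total counts and 5 with each tag under 1 hairpin, and between the exposures 3 with all libraries in 1 fit. Leaving out 1 library gave 0 to 7, 0 to 13 and 0 to 5. For L-Tyr the calls were 0 without its replicate 3, 1 without its replicate 1 or control replicate 1 or 3, and 2 without control replicate 2. For 5-Brd-2′-dU they were 1, 4 and 5 without its replicates 1, 2 and 3, and 2 and 0 without control replicates 1 and 2. Between the exposures they were 0 without replicate 3 of L-Tyr or 2 of 5-Brd-2′-dU and 3 without replicate 1 of 5-Brd-2′-dU. With the replicate block, which pairs libraries that share only a number (correlation of their deviations from −0.0921 to 0.0206), they were 10, 1 and 2, and no member was called. Ratios of miR-23a-3p over miR-23b-3p changed sign with the most abundant tag of each arm (0.43 with L-Tyr and 0.51 after 5-Brd-2′-dU), and between the exposures without replicate 3 of 5-Brd-2′-dU (−0.10 to 0.18 when 1 library was left out). The miR-27a arm ratio changed sign with the most abundant tag and with tags of 19 nt or more (0.77 and 1.05 for L-Tyr, −0.21 and −0.59 between the exposures). Both settings leave 0 counts of miR-27a-5p in replicate 3 of L-Tyr, where the ratio rests on the pseudocount. Fold changes that changed sign were those for L-Tyr of miR-23a-5p without replicate 1 of the control cells (6.88, and −0.80 to 6.88 over the libraries left out), miR-23b-3p over single tags (−0.36) and miR-24-3p with total counts (0.25). For 5-Brd-2′-dU this was miR-23b-5p over single tags (−0.14), and relative to L-Tyr miR-23a-3p without replicate 3 (−0.11). The level of miR-23a-3p in control cells was 20670.3 CPM with total counts. Sign changes between values that are both within 1 SE of 0 are not listed. The cause was not tested in any of these. Depth limits miR-23a-5p, miR-23b-5p and miR-27b-5p, with at most 67 counts in a library.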
